A study of Mus musculus with 4 samples.

Results

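The interferon-stimulated and antigen presentation genes are 36 genes that cells switch on after interferon or that load peptides onto MHC class I molecules. They were taken as a list of symbols and found on the arrays through the accession of each probe, and comprised 22 antiviral effectors, 7 regulators and 7 genes of antigen presentation, out of 21457 genes tested in all. Of the 36, 33 had a named probe and 31 were bright enough to be tested. Mx1, Mx2 and Xaf1 had no named probe and were not analysed here, and Oas2 and Gbp3 were too dim in sphere RNA in both groups to be tested. The RNA came from prostate spheres, a three-dimensional culture grown from basal cells that had been sorted from the prostates of adult FVB mice. In the DAPT group the medium held DAPT, an inhibitor of the Notch-releasing protease γ-secretase, at 5 µM, and in the vehicle group it held DMSO. The medium was renewed every 24 h in both groups, and no genotype other than the strain is named. Each group had 2 arrays, and every array set sphere RNA in red against a commercial universal mouse reference RNA in green.

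Cells sense viral nucleic acid through helicases such as RIG-I and through Toll-like receptors, and answer by secreting interferons. Type I and type III interferons act through receptors on the cell surface and the kinases JAK1 and TYK2, which activate a complex with STAT2 and IRF9 that binds the interferon-stimulated response element in the promoters of its target genes. Interferon gamma acts through its own receptor, and raises the immunoproteasome, the peptide transporter TAP and MHC molecules. In epithelia these genes also have a basal level without infection, which keeps peptides on display to T cells.

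Values are log2 ratios of sphere over reference RNA, and a change is the difference in mean log2 ratio, DAPT minus vehicle, with its SE from limma (n = 2 arrays in each group). A gene is called at a Benjamini-Hochberg adjusted p under 0.05 over all 21457 genes. By this rule DAPT spheres had 619 genes higher and 841 lower, so 42.4% of the calls were upward, against 70.6% with median centring and 27.9% with scale normalization between arrays. Median centring also moved the median change of all genes to 0.11, against -0.06 in the main setting. The main setting left out 13 spots of DAPT 2 with a high local background. With these spots kept 0.34% of all genes were called, against 6.8%, and 0 members, so the calls depended on leaving them out. Red signals were well above background on 63.7% to 69.5% of probe spots, and log ratios correlated at 0.943 within DAPT, at 0.922 within vehicle and at 0.839 to 0.879 across the groups. The scanner software had marked the spots of 22 and 24 tested members (of 31) as uneven or outlying on the DAPT arrays and of 4 and 10 on the vehicle arrays. Over all spots these shares were 49.6% and 50.9% on the DAPT arrays and 11.5% and 29.2% on the vehicle arrays. The part of these marks in the results was not tested beyond leaving such spots out, which kept 5 members. The labels do not say whether replicates were separate cultures or mice, and the p-values therefore describe the spread among these arrays, possibly a technical one. In RNA from whole spheres, fewer cells of a type and less RNA per cell cannot be told apart.

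Of the 31 tested members 2 fell with DAPT and 0 rose. The falling members were Usp18, a regulator that damps interferon signalling, and Bst2, an antiviral effector known as tetherin. Among all genes tested 3.92% were called lower and 2.88% higher, so the share of members called, 6.45%, was close to the 6.8% of all genes called in either direction. At an unadjusted p under 0.05 limma gave 8 members lower and 2 higher, a level that 13% of all genes passed as lower and 10.2% as higher (23.3% in either direction). The median change of the members was -0.23, against -0.06 for all genes, with 21 members below 0 and 10 above. Of all 21457 genes tested, 12110 lay below 0 and 9347 above, so most genes lay below 0 as well. Ifit1 and Ifit3 were kept only through vehicle and Ifih1 only through DAPT, in each case the group where they were brighter. With the filter on all 4 arrays 28 members were tested, 19 below 0 and 9 above, with a median of -0.21 against -0.08 for all genes. The median of the members lay below that of all genes in every setting run, with a difference of -0.30 to -0.07. The -0.30 rests on the 5 members left without marked spots. All settings use the same 4 arrays or some of them, so they are not independent of each other. Both DAPT arrays lay below both vehicle arrays for 15 members, Ifit3 among them, and above them for 3. Over all genes these shares were 31.7% and 22.1%.

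**Figure D1:**
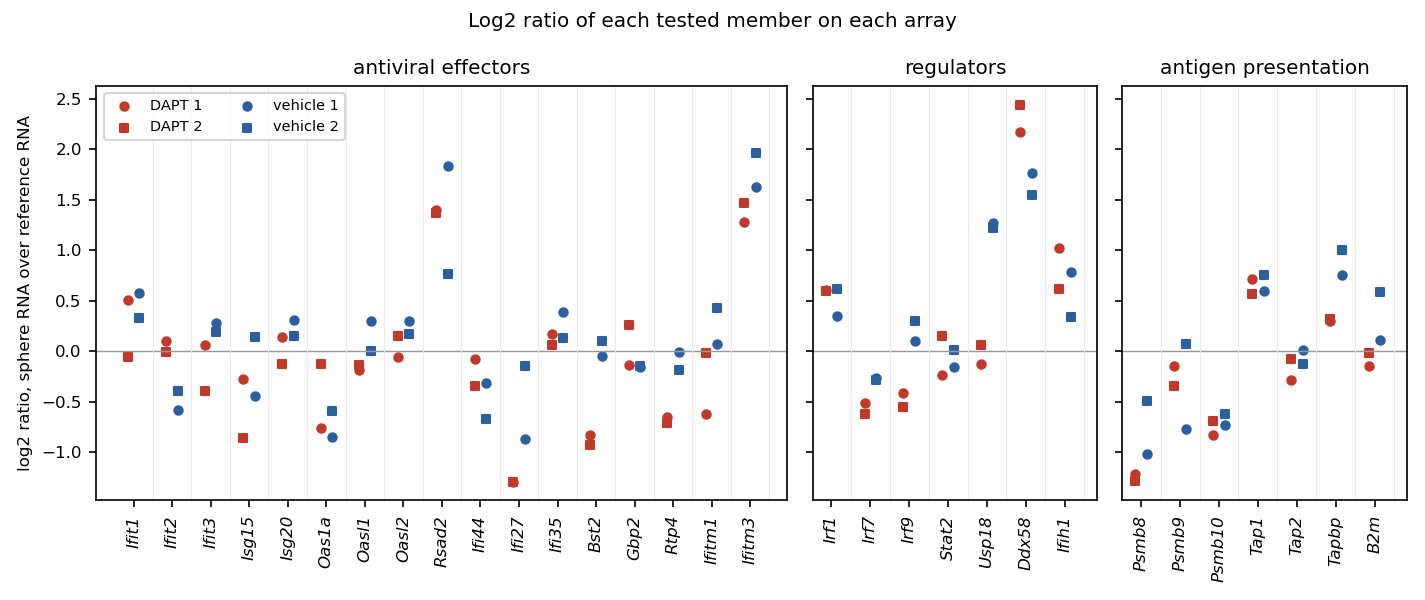
Log2 ratio of sphere over reference RNA (y axis) for the 31 tested members on each of the 4 arrays, in 3 panels by class, with DAPT arrays in red and vehicle arrays in blue. Usp18 stands near 0 on both DAPT arrays and above 1 on both vehicle arrays, Bst2 is separated as well, and most other members lie close together or overlap.

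The 95% interval of the change lay between -1 and 1 for 23 of the 31 members, and it held 0 for 21. These intervals cover the spread between arrays and not the processing: with processed signals Ifit1 was at -1.17 (adjusted p = 0.0578) and Ifit3 at -1.04 (adjusted p = 0.0964). Usp18 was the only tested member whose change reached 2-fold in the main setting, against 3.13% of all genes. Intervals reached past 1 or -1 for 8 members, so a 2-fold change of those is within the error. The median distance from a member's change to the end of its interval was 0.44.

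**Figure D2:**
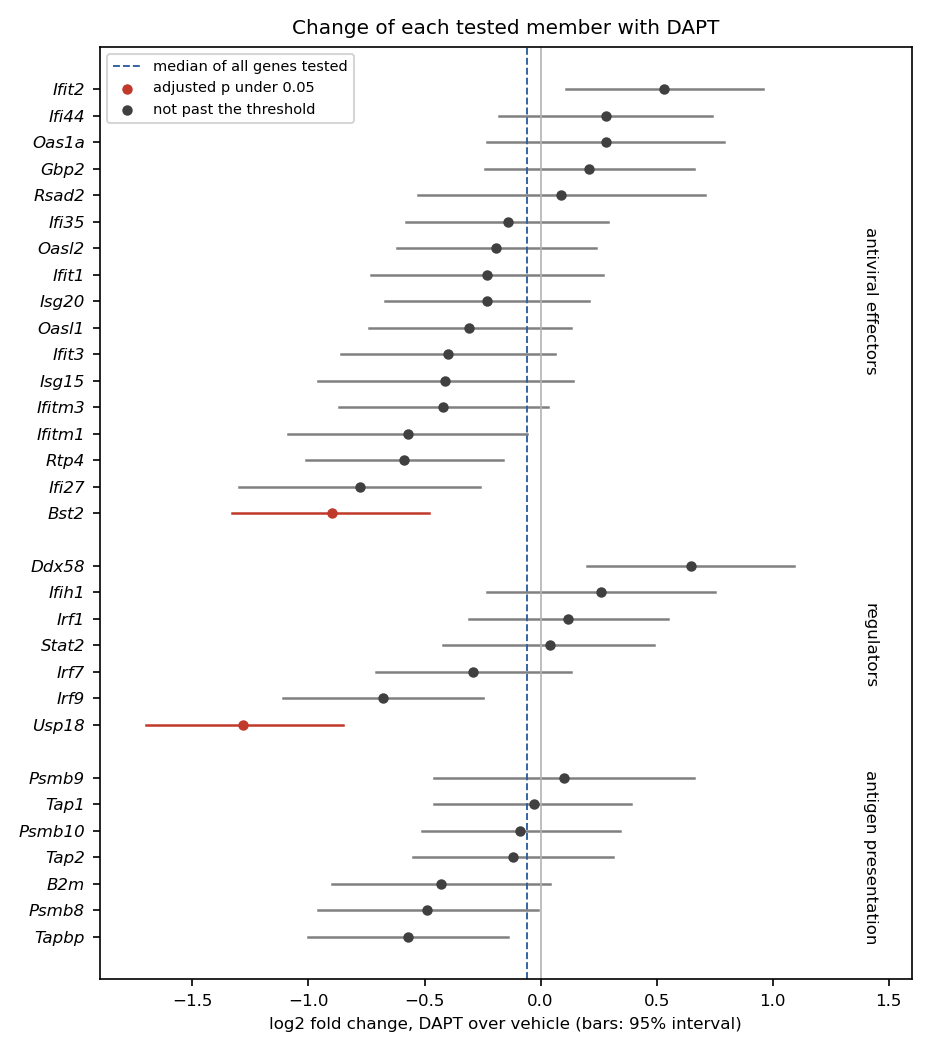
Log2 fold change of DAPT over vehicle (x axis) of each tested member, ordered within the 3 classes, with bars for the 95% interval from limma (2 arrays per group). Usp18 and Bst2, in red, passed the threshold, and the dashed line marks the median of all genes at -0.06.

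Among the antiviral effectors, 17 of 22 were tested, and 1 fell and 0 rose, with 4 lower and 1 higher at an unadjusted p under 0.05 in limma, against 13% and 10.2% of all genes. Bst2 encodes tetherin, a membrane protein that holds budding enveloped viruses at the cell surface. Its log2 ratio was -0.83 and -0.93 on the DAPT arrays, against -0.05 and 0.10 on the vehicle arrays. The groups did not overlap, and Bst2 fell by 0.90 ± 0.19 (1.87-fold lower, 95% interval -1.33 to -0.48, adjusted p = 0.0167). The call held in 8 of 14 other settings. It was lost when DAPT replicate 2 was left out (-0.85, adjusted p = 0.0606), with median centring (-0.43, adjusted p = 0.197), with processed signals (adjusted p = 0.148), with an offset of 10 (0.0608), in the red channel alone (0.354) and with spots of high local background kept (0.142).

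The promoters of several effectors carry the letters that interferon signalling reads. The 250 bases before the start site were searched on both strands for GAAA, any 2 bases and GAAA again, the core of the interferon-stimulated response element, and for TTCNNNGAA, the gamma-activated site of interferon gamma signalling. A window was found in the RefSeq table (GRCm38.p6) for 29 of the 36 members. The response element core was present in 10 of these (34.5%), against 3.46% of the 27025 genes with a window, and in 8 of 17 effectors, 1 of 6 regulators and 1 of 6 antigen presentation genes. The gamma-activated site was present in 6 (20.7%), against 8.13% of all genes, and neither search scored the bases around the match. The windows below are shown because all of them hold the response element core, while their genes differ in change. Capitals mark the matches to the response element core on either strand, and overlapping matches run together. Matches to the gamma-activated site stay in lower case, except where they overlap a match in capitals, as at the end of the Bst2 site.
Bst2 (chr8:71537473-71537722, minus strand): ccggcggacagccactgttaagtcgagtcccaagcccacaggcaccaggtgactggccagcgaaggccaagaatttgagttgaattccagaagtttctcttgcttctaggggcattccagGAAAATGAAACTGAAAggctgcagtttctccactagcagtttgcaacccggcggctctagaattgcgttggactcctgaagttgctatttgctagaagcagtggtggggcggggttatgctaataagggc
Isg15 (chr4:156200819-156201068, minus strand): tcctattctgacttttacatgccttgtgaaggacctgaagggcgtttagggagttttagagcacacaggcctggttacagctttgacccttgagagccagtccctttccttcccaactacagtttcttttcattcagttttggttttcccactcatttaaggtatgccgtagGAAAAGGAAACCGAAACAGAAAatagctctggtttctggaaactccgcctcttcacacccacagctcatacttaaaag
Oas1a (chr5:120907526-120907775, minus strand): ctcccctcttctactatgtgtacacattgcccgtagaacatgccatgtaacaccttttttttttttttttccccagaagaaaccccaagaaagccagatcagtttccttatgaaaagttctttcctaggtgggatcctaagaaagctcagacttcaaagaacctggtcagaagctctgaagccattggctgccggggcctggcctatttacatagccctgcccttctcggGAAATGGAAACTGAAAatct
B2m (chr2:122147437-122147686, plus strand): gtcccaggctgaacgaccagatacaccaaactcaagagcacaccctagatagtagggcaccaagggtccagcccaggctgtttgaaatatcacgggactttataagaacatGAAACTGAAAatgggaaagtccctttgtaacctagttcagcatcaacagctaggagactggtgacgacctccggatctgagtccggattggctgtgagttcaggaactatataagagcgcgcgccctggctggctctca
In Bst2 the matches start 130 and 124 bases before the start site and a gamma-activated site starts at 136. Isg15 holds 3 overlapping matches, from 78 bases before its start, Oas1a holds a pair that ends 5 bases before it and a gamma-activated site that starts at 98, and B2m has a single match at 139. The changes of these genes were -0.90 for Bst2, -0.41 for Isg15, 0.28 for Oas1a and -0.43 for B2m, of which only that of Bst2 passed. The 9 tested members with a match had a median change of -0.23 with 5 below 0. The 18 with a window and no match had a median of -0.16 with 12 below 0. Neither set holds Usp18 (-1.28), Ifi27 (-0.78), Rtp4 (-0.59) or Tap2 (-0.12), which were tested but had no window. The comparison therefore leaves out Usp18, the largest change among the members. A match is a description of letters and not a site shown to be bound.

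The next largest change among effectors was that of Ifi27, a small mitochondrial and membrane protein strongly induced by type I interferon. Its log2 ratio was -1.29 on both DAPT arrays, against -0.87 and -0.15 on the vehicle arrays. The change of -0.78 ± 0.24 did not pass (adjusted p = 0.0728), and without vehicle replicate 1 it was -1.14 and passed (adjusted p = 0.00464). Rtp4, which encodes a receptor-transporter protein with antiviral activity, stood at -0.65 and -0.71 with DAPT and -0.01 and -0.18 with vehicle. Its groups did not overlap either, at a change of -0.59 ± 0.19 (adjusted p = 0.093).

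The interferon-induced transmembrane proteins block the fusion of viruses with endosomes. Ifitm3 was well above the reference in both groups, at a log2 ratio of 1.28 and 1.47 with DAPT and 1.63 and 1.96 with vehicle. Its change of -0.42 ± 0.21 did not pass (adjusted p = 0.244). Ifitm1 stood at -0.62 and -0.02 with DAPT and at 0.07 and 0.43 with vehicle, a change of -0.57 ± 0.24 (adjusted p = 0.17). For both genes the DAPT arrays lay below the vehicle arrays, but by less than the test required. The probes of this family detect closely related transcripts, and whether they tell them apart was not tested.

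The IFIT proteins bind viral RNA that lacks host marks, and their genes are among the most interferon-responsive known. None of the 3 tested passed. Ifit1 had a log2 ratio of 0.51 and -0.06 with DAPT and 0.58 and 0.33 with vehicle (change -0.23 ± 0.23). Ifit3 stood at 0.06 and -0.39 with DAPT and at 0.28 and 0.19 with vehicle (change -0.40 ± 0.21). In both, only 1 of the 2 DAPT arrays was well above background in red, so these ratios rest on dim spots. Both genes were kept only through vehicle, where they were brighter. Ifit2 stood at 0.10 and -0.01 with DAPT and -0.58 and -0.39 with vehicle. Its change of 0.53 ± 0.20 did not pass (adjusted p = 0.125), and a second probe of the same transcript gave -0.20.

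The ubiquitin-like modifier Isg15, which is conjugated to proteins during the antiviral response and removed again by USP18, had a log2 ratio of -0.27 and -0.86 with DAPT and -0.44 and 0.14 with vehicle. The groups overlapped, and the change was -0.41 ± 0.25 with an interval of -0.96 to 0.14. Rsad2, which encodes the radical enzyme viperin, was higher in spheres than in the reference at 1.40 and 1.37 with DAPT and 1.83 and 0.77 with vehicle. Its vehicle arrays differed from each other by more than the groups did (change 0.09 ± 0.29), and its other probes gave 0.15 and 0.47.

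The oligoadenylate synthetases make a second messenger that switches on the nuclease RNase L. Oas1a had a change of 0.28 ± 0.23, while its relatives Oasl1 and Oasl2 had changes of -0.31 ± 0.20 and -0.19 ± 0.20, and none passed. Oas2, which was too dim to test, showed a log2 ratio of -0.57 and -0.33 with DAPT and 0.05 and -0.02 with vehicle. The remaining tested effectors were the exonuclease gene Isg20 at -0.23, Ifi35 at -0.14, Ifi44 at 0.28 and the guanylate-binding protein gene Gbp2 at 0.21. All had adjusted p-values from 0.463 to 0.717, and the changes of Isg20, Ifi35 and Gbp2 took the other sign in the red channel alone. Gbp3, also too dim to test, stood at 0.01 and 0.06 with DAPT and 0.37 and 0.15 with vehicle.

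All 7 regulators were tested, and 1 fell and 0 rose, with 2 lower and 1 higher at an unadjusted p under 0.05 in limma (13% and 10.2% of all genes). Usp18 encodes a protease that strips ISG15 from proteins and blocks the type I interferon receptor, and is itself an interferon target. Its log2 ratio was -0.13 and 0.06 on the DAPT arrays, against 1.27 and 1.22 on the vehicle arrays. The arrays of each group lay close together and the groups far apart, and Usp18 fell by 1.28 ± 0.19 (2.42-fold lower, 95% interval -1.70 to -0.85, adjusted p = 0.00274). The call held in 12 of 14 other settings, including each of the 4 in which an array was left out. It was lost in the red channel alone, where the groups overlapped (-0.49, adjusted p = 0.604), and with spots of high local background kept (-1.28, adjusted p = 0.0609).

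Genes of the complex with STAT2 and IRF9, of which Usp18 is a known target, differed among themselves. Irf9, the DNA-binding part, had a log2 ratio of -0.41 and -0.55 with DAPT and 0.10 and 0.30 with vehicle. The groups did not overlap, but the change of -0.68 ± 0.20 stopped short of the threshold (adjusted p = 0.0594), and it passed at -0.78 without vehicle replicate 1 (adjusted p = 0.0481). A second Irf9 probe gave 0.06, so the probes disagree. Stat2, the activating part, stood at -0.23 and 0.15 with DAPT and -0.16 and 0.01 with vehicle, with overlapping groups and a change of 0.04 ± 0.21.

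Irf1 and Irf7 encode transcription factors that raise interferon and its targets, Irf7 being the main amplifier of type I interferon. Irf7 had a log2 ratio of -0.51 and -0.62 with DAPT and -0.26 and -0.28 with vehicle, a change of -0.29 ± 0.19 (adjusted p = 0.397). Irf1 was at 0.61 and 0.60 with DAPT and 0.35 and 0.62 with vehicle (change 0.12 ± 0.20). Neither passed in any setting run. Ddx58, the gene of RIG-I, had a log2 ratio of 2.17 and 2.44 with DAPT and 1.77 and 1.55 with vehicle. Its change of 0.65 ± 0.20 did not pass (adjusted p = 0.0789) except with median centring (0.80, adjusted p = 0.0357), and its other probes gave 0.59 and 0.12. Ifih1, which encodes a related sensor of long double-stranded RNA, stood at 1.02 and 0.62 with DAPT and 0.79 and 0.34 with vehicle (change 0.26 ± 0.23). It was kept only through DAPT, where it was brighter, with only 1 vehicle array well above background.

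All 7 antigen presentation genes were tested, and 0 rose and 0 fell, with 2 lower and 0 higher at an unadjusted p under 0.05 in limma (13% and 10.2% of all genes). B2m encodes the light chain shared by all MHC class I molecules. It had a log2 ratio of -0.15 and -0.02 with DAPT, against 0.11 and 0.59 with vehicle, a change of -0.43 ± 0.22 (interval -0.90 to 0.04) that a second probe gave as -0.50. Tapbp encodes tapasin, which holds class I molecules at the peptide transporter, and stood at 0.30 and 0.32 with DAPT and 0.76 and 1.00 with vehicle. The groups did not overlap, but the change of -0.57 ± 0.20 did not pass (adjusted p = 0.105), and the other probe gave -0.36.

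The transporter subunits Tap1 and Tap2 were nearly level. Tap1 had a log2 ratio of 0.72 and 0.57 with DAPT and 0.60 and 0.76 with vehicle (change -0.03 ± 0.20, interval -0.46 to 0.39), and Tap2 changed by -0.12 ± 0.20. Of the immunoproteasome subunits, Psmb8 stood at -1.21 and -1.28 with DAPT and -1.02 and -0.49 with vehicle (change -0.49 ± 0.22, adjusted p = 0.205). Psmb9 was at -0.15 and -0.34 with DAPT and -0.77 and 0.07 with vehicle, and its change of 0.10 ± 0.26 is small beside the distance between its vehicle arrays. Psmb10 changed by -0.09 ± 0.19. Psmb9 and Tap1 lie head to head, and their promoter windows share 225 bases on opposite strands with no match to either searched motif.

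Where a change in ratio lay was read from each channel after loess and Aquantile normalization. For Bst2 it lay in the sphere RNA: the mean log2 red signal was 0.81 lower with DAPT (12.92 and 13.13 with DAPT, 13.93 and 13.74 with vehicle), and the green signal was 0.09 higher. For Usp18 the larger part lay in the reference. Its log2 red signal was 8.53 and 9.07 with DAPT and 9.69 and 8.89 with vehicle, so the groups overlapped, while its green signal was 8.65 and 9.01 with DAPT and 8.42 and 7.67 with vehicle. The red difference was -0.49 and the green difference 0.79, although the same reference RNA is named for all arrays. The larger part lay in the reference for B2m (-0.03 in red, 0.41 in green) and Rtp4 (-0.22 in red, 0.37 in green) as well. For Oas1a both channels were higher on the DAPT arrays (1.29 in red, 1.02 in green), which nearly cancels in its ratio. Over the 31 members the median red difference was -0.18 and the median green difference 0.07, against -0.04 and 0.04 for all genes. Limma on the red channel alone called 0 members (4 at an unadjusted p under 0.05) and 1 of all genes.

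**Figure D3:**
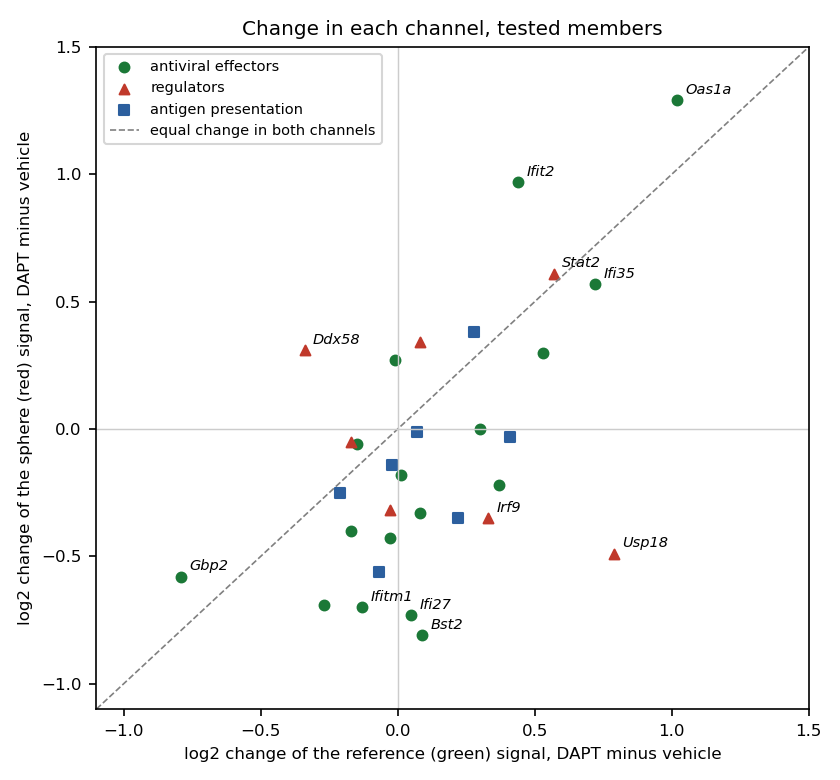
Change of the red sphere signal (y axis) against change of the green reference signal (x axis), DAPT minus vehicle, on the log2 scale for the 31 tested members, with a dashed line where both channels change alike and the ratio stays level. Bst2 and Ifi27 lie straight below 0, Usp18 lies furthest below the line, and Oas1a and Gbp2 lie along it.

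Genes upstream of the members were described from related lists. Among 19 tested interferon ligands, receptors and signal transducers 1 fell and 0 rose, with 6 lower and 0 higher at an unadjusted p under 0.05. As shares of all genes, 3.92% fell and 2.88% rose, and 13% were lower and 10.2% higher at the unadjusted level, and these shares apply to each list that follows. Ifngr1, the ligand-binding chain of the interferon gamma receptor, had a log2 ratio of 1.65 and 1.78 with DAPT and 2.47 and 3.02 with vehicle. The groups did not overlap, and Ifngr1 fell by 1.03 ± 0.22 (2.04-fold lower, adjusted p = 0.0168), but not without vehicle replicate 2 (-0.76, adjusted p = 0.0672). Its partner chain Ifngr2 changed by -0.67 ± 0.20 (adjusted p = 0.07). The chains of the type I receptor, Ifnar1 and Ifnar2, changed by -0.29 ± 0.20 and -0.64 ± 0.20, and Ifnlr1 of the type III receptor by -0.15 ± 0.22, and none passed. Ifnar2 was kept only through vehicle, where it was brighter, with 1 DAPT array well above background. Pias1, which encodes a SUMO ligase, had a change of -0.66 ± 0.24, short of the threshold (adjusted p = 0.127). Without vehicle replicate 1, 4 genes of this list fell (1 to 4 lower and 0 to 1 higher over the 4 arrays left out), and the ligand gene Ifnb1 was not well above background in either group.

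Among 21 tested genes of nucleic acid sensing 1 rose and 0 fell, with 4 lower and 1 higher at an unadjusted p under 0.05. When an array was left out, 0 to 2 genes of the list were lower and 0 to 1 higher. Ikbke, which encodes a kinase that activates the interferon regulatory factors, had a log2 ratio of 1.38 on both DAPT arrays, against 0.58 and 0.47 on the vehicle arrays. Ikbke rose by 0.85 ± 0.19 (adjusted p = 0.0208), and lost its call without DAPT replicate 2 (0.86, adjusted p = 0.0581) and without vehicle replicate 2 (0.80, adjusted p = 0.0507). Dhx58 at -0.82 ± 0.38, the sensor gene Tlr9 at -0.66 ± 0.22 and the other genes of this list did not pass. The groups of Dhx58 overlapped, at -1.66 and -1.94 with DAPT and -0.17 and -1.80 with vehicle. Dhx58 was kept only through DAPT, with 1 vehicle array well above background. Its red difference was 0.13 and its green difference 0.95.

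Of 33 further interferon-induced genes tested 4 fell and 0 rose, with 9 lower and 1 higher at an unadjusted p under 0.05. Of those 9, Ifi47 was kept only through vehicle, where it was brighter, with 1 DAPT array well above background. When an array was left out, 2 to 5 were lower and 0 to 1 higher. Slfn2, a schlafen gene, fell by 1.05 ± 0.22, with a log2 ratio of 1.66 and 1.85 with DAPT and 2.55 and 3.07 with vehicle. Ifitm2, a neighbour of Ifitm1 and Ifitm3 in sequence, fell by 1.02 ± 0.20, from a probe at -0.26 and -0.06 with DAPT and 0.98 and 0.75 with vehicle, while its second probe gave -0.51. Ifi30, a lysosomal thiol reductase that prepares antigens for class II presentation, fell by 0.94 ± 0.21, and Parp9, an interferon-induced member of the PARP family, fell by 0.76 ± 0.20. Without DAPT replicate 2 neither Ifi30 (-0.74, adjusted p = 0.116) nor Parp9 (-0.64, adjusted p = 0.202) passed, and without vehicle replicate 2 neither Slfn2 (-0.80, adjusted p = 0.0548) nor Parp9 (-0.66, adjusted p = 0.124) did.

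The rest of the class I route moved little, and 0 of 18 tested genes passed (2 lower and 0 higher at an unadjusted p under 0.05 in limma). The class I heavy chain genes H2-K1 and H2-D1 changed by 0.05 ± 0.27 and -0.25 ± 0.20. As members of a family of near-identical genes they may not be told apart by their probes. The largest changes were those of Cd1d1, an antigen-presenting molecule for lipids, at -0.76 ± 0.21 (adjusted p = 0.0514), and Mr1 at -0.50 ± 0.20. Next came the proteasome activator gene Psme1 at -0.40 ± 0.19, whose signals were higher with DAPT in both channels (0.80 in red, 1.19 in green). Cd1d1 and Mr1, the 2 genes lower at the unadjusted level, were kept only through vehicle, where they were brighter, with 1 DAPT array well above background. None of the 15 constitutive proteasome genes passed (1 lower at an unadjusted p under 0.05 in limma). Psmb5, Psmb6 and Psmb7, whose products the immunoproteasome subunits replace, changed by 0.02, -0.22 and -0.03, and the largest changes of that list were Psmb4 at -0.51, Psmb1 at -0.37 and Psmb3 at 0.26.

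In the class II route, which presents antigens taken up from outside the cell, 3 of 12 tested genes fell and 0 rose, with 4 lower and 0 higher at an unadjusted p under 0.05. When an array was left out, 2 to 4 were lower. H2-Ab1, the beta chain of the class II molecule I-A, had a log2 ratio of 0.25 and 0.05 on the DAPT arrays, against 2.82 and 1.91 on the vehicle arrays. The groups were far apart, and H2-Ab1 fell by 2.22 ± 0.27 (4.66-fold lower, adjusted p = 0.000559). Its other probes gave -1.52 and -1.55, its red difference was -2.28 and its green difference -0.06, and the call held in 13 of 14 other settings, the exception being the red channel alone (adjusted p = 0.195). The alpha chain gene H2-Aa fell by 0.77 ± 0.20, with a second probe at -0.13, and its call was lost when DAPT replicate 2 (-0.61, adjusted p = 0.232) or vehicle replicate 2 (-0.74, adjusted p = 0.0865) was left out. Lgmn, a lysosomal protease, fell by 1.19 ± 0.21. The invariant chain gene Cd74 changed by -0.51 ± 0.25 and Ciita, the master activator of class II genes, by -0.07 ± 0.19.

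The calls on these related genes depended on the processing. Of 14 other settings, the call held in 13 for H2-Ab1, 11 for Slfn2, 11 for Lgmn, 10 for Ifitm2, 9 for Ifngr1, 8 for Ifi30, 7 for Ikbke, 7 for Parp9 and 6 for H2-Aa. In the red channel alone none of the 9 genes named as changed passed, and with spots of high local background kept only H2-Ab1 did. With processed signals H2-Ab1 and Slfn2 passed and the other 7 did not. With median centring Ifngr1 (-0.60, adjusted p = 0.0869), Ifitm2 (-0.56, adjusted p = 0.118), Ifi30 (-0.51), Parp9 (-0.45) and H2-Aa (-0.62) did not pass.

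**Figure D4:**
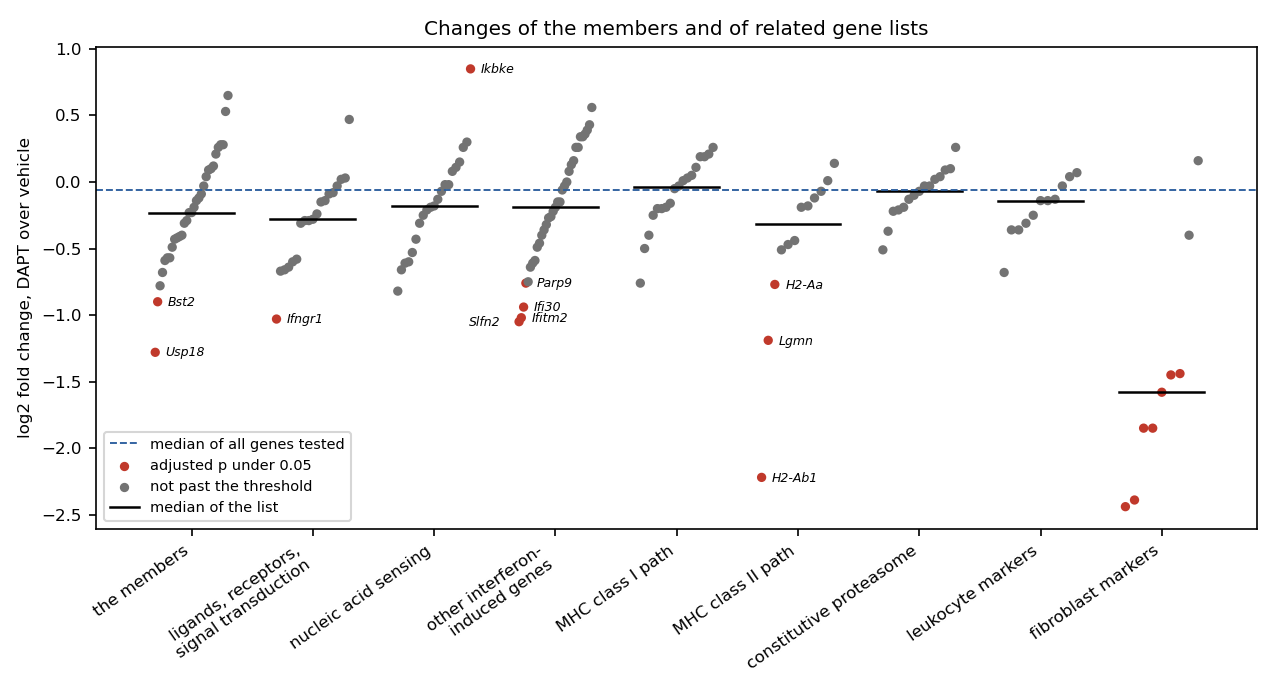
Log2 fold change of DAPT over vehicle (y axis) for the tested genes of each list, with a black line at the list median, red points past the threshold and a dashed line at the median of all genes (-0.06). H2-Ab1 at -2.22 stands furthest from 0 among the interferon and antigen presentation lists. The fibroblast markers have the lowest median of the lists shown, at -1.58.

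Markers of other cells were read beside these results. The basal keratin genes Krt5 and Krt14 stood at log2 ratios of 4.63 to 5.17 and 3.88 to 4.52 on the 4 arrays, so both were far above the reference in every sphere sample. Of 14 leukocyte markers 11 were tested and 0 passed (1 lower at an unadjusted p under 0.05 in limma), while Siglech and Itgax were too dim to test and Cd68 had no named probe. Among that list were Cd14 at -0.68 ± 0.21 (adjusted p = 0.0749) and Laptm5 at -0.36. The summed red signal of the 11 was 7970 and 9530 with DAPT and 7700 and 9340 with vehicle. Cd3e weighed most in these sums, at a log2 red signal of 12.04 and 12.20 with DAPT and 11.85 and 12.16 with vehicle. The pan-leukocyte gene Ptprc stood at -1.75 and -1.29 with DAPT and -1.87 and -1.23 with vehicle, so its groups overlapped. Of the 11 tested leukocyte markers 9 lay below 0 and 2, Ptprc among them, above. Of all 21457 genes tested, 12110 lay below 0 and 9347 above. The part of leukocyte RNA in the results was not tested. Of 9 fibroblast markers 7 fell and 0 rose, led by Mgp at -2.44, Postn at -2.39 and Col1a2 at -1.85. The summed red signal of the 9 was 11800 and 12500 with DAPT, against 52600 and 39800 with vehicle. Mgp weighed most in the vehicle sums, at a log2 red signal of 15.01 and 13.90, so the sums do not weigh the markers alike. Among basal markers 1 of 7 fell (Krt15, -1.08 ± 0.20), the luminal keratin gene Krt19 fell by 1.11 ± 0.19, and 0 of 3 endothelial markers passed (0 at an unadjusted p under 0.05 in limma). The part of the fibroblast difference in the falls of Usp18, Bst2, Ifngr1 and H2-Ab1 was not tested.

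Across the processing settings the members that moved most kept their direction. Bst2, Ifi27 and Irf9 stayed below 0 and Ddx58 above it in all settings that gave a value, with ranges of -0.98 to -0.43, -1.14 to -0.42, -0.78 to -0.35 and 0.16 to 0.80. Usp18 ranged from -1.47 to -0.49. With median centring 7 members changed sign, among them B2m, at 0.01 against -0.43 in the main setting, and Ifitm3, at 0.06 against -0.42.

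**Figure D5:**
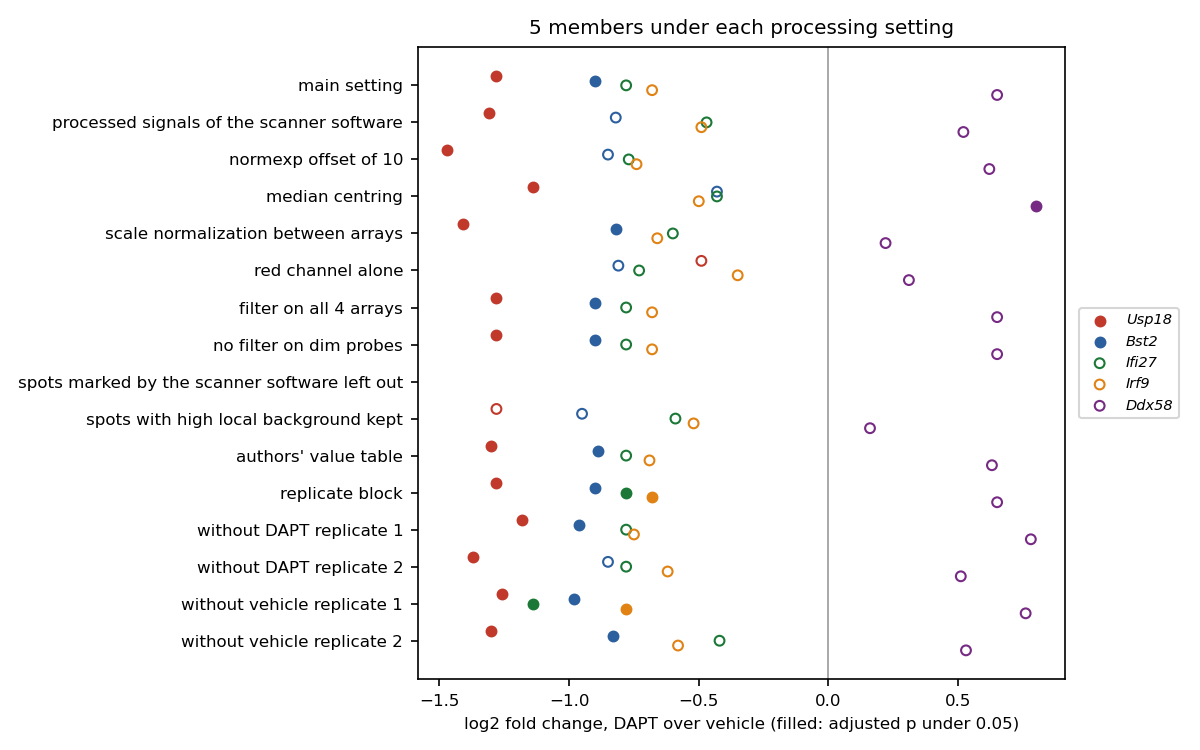
Log2 fold change of DAPT over vehicle (x axis) of Usp18, Bst2, Ifi27, Irf9 and Ddx58 under each processing setting (rows), filled where the adjusted p was under 0.05. None of these 5 genes had unmarked spots on all 4 arrays, so that row is empty, and Usp18 is filled in all but the red channel alone and the setting that kept spots of high local background.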

How the data were processed

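Sphere RNA and a universal reference RNA were measured on 4 arrays with 2 colours, all on 1 slide and scanned together, so slide and scan could not be tested as batches. Per the file headers, Agilent Feature Extraction 10.7.3.1 gave each spot's intensity and that of its surroundings in red and green, without normalization, and a log10 ratio (red over green). The authors' deposited value table holds log2 ratios, by a normalization not given in the sources. It correlated at 0.869 to 0.902 with the scanner ratios and at 0.9996 to 0.9998 with ratios after loess. As another setting it therefore nearly repeats the main one and adds little to a count of settings. Its column medians were -0.015 and -0.011 for DAPT and 0.00072 and -0.011 for vehicle.

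Median signals were background-corrected with normexp (offset 50) in limma 3.58.1 and R 4.3.3, without 13 spots of DAPT 2 whose surroundings exceeded 5 times the median background, and loess was fitted within arrays. Repeated spots were averaged. Kept were probes for which both arrays of either group stood well above background in red, and the brightest stood for its gene. Of 41174 probes, 24375 were named through RefSeq accessions (GRCm38.p6). Groups were compared with lmFit and eBayes (two-sided, 2 residual and 10.2 prior degrees of freedom) and Benjamini-Hochberg adjustment over all genes, and the fit was tested on simulated data. The rule for naming took all members and, from each related list, the genes past the threshold, the 3 with the largest changes and 12 fixed genes; some of these are not reported here. The members and lists were chosen with earlier results of these data known.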

Additional observations from a re-analysis of the deposited data

How the results depend on the processing

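Other settings moved the members' counts. Against 0 members higher and 2 lower in the main setting, 1 was lower with processed signals, 1 with an offset of 10, 1 higher and 1 lower with median centring, 0 lower in the red channel alone, 0 lower with high-background spots kept and 4 lower with the replicate block. With marked spots left out, 5 members had spots on all 4 arrays and 0 were lower. Leaving out an array gave 1 to 4 lower and 0 higher. The median of the members was -0.16 with processed signals, -0.28 with an offset of 10, -0.13 with median centring, -0.18 in the red channel alone, -0.18 with high-background spots kept and -0.27 to -0.15 when an array was left out. Over all genes, 619 were higher and 841 lower. The counts were 292 and 336 with processed signals, 356 and 513 with an offset of 10, 1251 and 520 with median centring, 0 and 1 in the red channel alone (2638 at an unadjusted p under 0.05), 125 and 61 of 2841 testable genes without marked spots, and 3 and 70 with high-background spots kept. Scale normalization gave 384 higher. Leaving out an array gave 421 to 832 higher and 604 to 1040 lower.

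Members that changed sign did not pass in either setting. With median centring Ifih1 was at -0.20, Stat2 at -0.41, B2m at 0.01, Ifitm3 at 0.06, Tap2 at 0.17, Ifi35 at 0.25 and Psmb10 at 0.33. With processed signals Rsad2 was at -0.08, Ifih1 at -0.11, Stat2 at -0.14, Tap2 at 0.20, Ifi35 at 0.30 and Psmb10 at 0.33. In the red channel alone Irf1 was at -0.05, Rsad2 at -0.06, Gbp2 at -0.58, Isg20 at 0.30 and Ifi35 at 0.57. With scale normalization Rsad2 was at -0.19 and Psmb10 at 0.07, and with high-background spots kept Ifih1 was at -0.02, Stat2 at -0.03 and Rsad2 at -0.40. Leaving out an array, the ranges that crossed 0 were -0.51 to 0.06 for Ifit1, -0.04 to 0.59 for Oas1a, -0.15 to 0.23 for Stat2, -0.11 to 0.05 for Tap1, -0.01 to 0.26 for Irf1, -0.32 to 0.52 for Psmb9 and -0.44 to 0.61 for Rsad2. The cause of these shifts was not tested, except that fewer genes were testable without marked spots.

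Replicate numbers pair the samples only by name: the deviations of same-numbered arrays correlated at 0.084 over genes. The replicate block added Ifi27 (adjusted p = 0.0349) and Irf9 (0.0462) to the members called lower. No slide or scan block could be fitted, since all arrays share 1 slide. The precision is limited by 2 arrays per group.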
